A study of Mus musculus with 6 samples.

Results

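A set of 35 genes of glycolysis and of the response to low oxygen was examined in mouse prostate cancer cells stimulated with colony-stimulating factor 1 (CSF-1), out of 36163 genes named on the arrays. The set was chosen by gene symbol: glucose transporters, the enzymes from hexokinase to lactate dehydrogenase, the lactate transporters, Hif1a with prolyl hydroxylases that act on it, and genes known to respond to hypoxia. For each gene the probe brightest over all 6 arrays was used, and its signal was expressed as a log2 level relative to the 75th percentile of all gene spots of the same array, so that a level of 0 is a signal equal to that percentile. Of the 35 members, 33 had a usable spot on all 6 arrays and were well above background on both replicates of some group, and these entered a test of 24648 genes in all. The exceptions were Slc2a3, a glucose transporter near background, and Slc16a1, a lactate transporter with a flagged spot on 1 array.

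Expression was measured in N18-Fms cells (N18-CFMS in the labels), with 2 arrays in each of 3 groups: cells left unstimulated and labelled as vehicle, cells stimulated for 24 h with recombinant mouse CSF-1 (100 ng/ml), and cells stimulated for 48 h with the same dose. N18 is a luciferase-carrying subclone of the C2H line, itself a clonal epithelial line from a tumour of the TRAMP mouse, so each group is 1 subclone. A retrovirus had added murine c-fms cDNA, which encodes the CSF-1 receptor, to the cells of every group, and the cells also secrete CSF-1 themselves, so that the unstimulated group is not free of the ligand. All groups were grown with dihydrotestosterone in high-glucose medium, and the 2 arrays of a group came from 2 independent experiments. The times are those of the labels and of the study's results text and figure legend, while its methods section names a shorter pair of times.

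Glycolysis turns glucose into pyruvate in the cytosol, and lactate dehydrogenase can then reduce pyruvate to lactate, which leaves the cell through monocarboxylate transporters. Hypoxia-inducible factor (HIF) raises the transcription of many of these genes: its HIF1A subunit is hydroxylated by the EGLN prolyl hydroxylases and degraded when oxygen is present, and otherwise pairs with ARNT and binds a short core motif, the hypoxia response element. Prostate tumour cells are known to draw on both glycolysis and oxidative metabolism. All statements below are on transcript signal, and in bulk RNA fewer cells of a type and less RNA per cell cannot be told apart.

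The promoters of 6 members are shown because they hold that core motif in genes that later differed in their response. Sequences are the 250 bases before the gene start from RefSeq, build GRCm38.p6, each 5′ to 3′ on the strand of the gene. Capitals mark ACGTG or GCGTG, or either one read on the other strand (CACGT or CACGC), and matches may overlap. Slc2a1, Car9, Bnip3 and Ankrd37 were called higher after CSF-1, while Ldha and Pgk1 were not.
Slc2a1, chr4:119108495-119108744, plus strand: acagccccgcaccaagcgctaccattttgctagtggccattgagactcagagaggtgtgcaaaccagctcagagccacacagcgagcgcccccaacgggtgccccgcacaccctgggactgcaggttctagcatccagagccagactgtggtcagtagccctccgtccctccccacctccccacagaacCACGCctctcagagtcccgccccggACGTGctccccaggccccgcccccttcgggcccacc
Car9, chr4:43506776-43507025, plus strand: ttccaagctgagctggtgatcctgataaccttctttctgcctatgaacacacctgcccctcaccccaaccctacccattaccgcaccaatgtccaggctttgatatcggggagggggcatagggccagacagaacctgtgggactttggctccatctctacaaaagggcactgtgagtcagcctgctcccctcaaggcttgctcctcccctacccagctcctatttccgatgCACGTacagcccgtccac
Bnip3, chr7:138909507-138909756, minus strand: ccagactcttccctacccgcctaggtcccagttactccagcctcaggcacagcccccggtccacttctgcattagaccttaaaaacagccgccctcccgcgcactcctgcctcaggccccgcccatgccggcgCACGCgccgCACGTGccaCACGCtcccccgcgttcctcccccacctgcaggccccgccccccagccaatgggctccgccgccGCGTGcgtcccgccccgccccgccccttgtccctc
Ankrd37, chr8:45999851-46000100, minus strand: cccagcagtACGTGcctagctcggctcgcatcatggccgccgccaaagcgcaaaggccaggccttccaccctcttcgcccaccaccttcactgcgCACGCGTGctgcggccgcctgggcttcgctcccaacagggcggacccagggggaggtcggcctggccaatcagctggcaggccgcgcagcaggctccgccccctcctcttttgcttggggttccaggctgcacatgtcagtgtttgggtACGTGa
Ldha, chr7:46845554-46845803, plus strand: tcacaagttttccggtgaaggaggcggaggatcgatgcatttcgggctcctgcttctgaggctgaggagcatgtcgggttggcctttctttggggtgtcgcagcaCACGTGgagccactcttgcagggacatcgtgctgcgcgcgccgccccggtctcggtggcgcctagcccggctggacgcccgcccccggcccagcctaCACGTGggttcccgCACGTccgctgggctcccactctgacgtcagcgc
Pgk1, chrX:106186850-106187099, plus strand: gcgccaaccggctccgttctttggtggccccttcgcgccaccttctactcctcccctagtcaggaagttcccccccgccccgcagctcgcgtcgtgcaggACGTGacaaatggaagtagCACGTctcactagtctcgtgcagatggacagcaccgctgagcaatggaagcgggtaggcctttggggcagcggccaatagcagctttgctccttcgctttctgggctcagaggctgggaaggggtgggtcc

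Of the 35 members, all matched a RefSeq gene (34 by symbol and Pkm2 by accession) and 33 had a promoter sequence. The core motif was found in the first listed promoter of 27 of these 33, or 81.8%, against 38.6% of the first listed promoters of 27025 genes. Among the members called after CSF-1 that had a sequence, 8 of 8 held it there, and among those tested and not called 18 of 24 did. Of the others not called, Hk1, Aldoa and Pkm2 held it only in a later listed promoter. The motif therefore stood in most promoters of both kinds, and Ldha, with 5 matches, had as many as Bnip3. A CACGTG counts as 2 overlapping matches, and both of these promoters hold it, so matches are not separate sites. Car9 and Pdk1 had 1 match each, Slc2a1, Hk2 and Pgk1 had 2, Pfkp and Hif1a had 3 and Ankrd37 had 4. A match describes the letters of a sequence and is not a bound site. Each form of the motif holds a CG, and the genes compared were not matched for base composition.

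**Figure D1:**
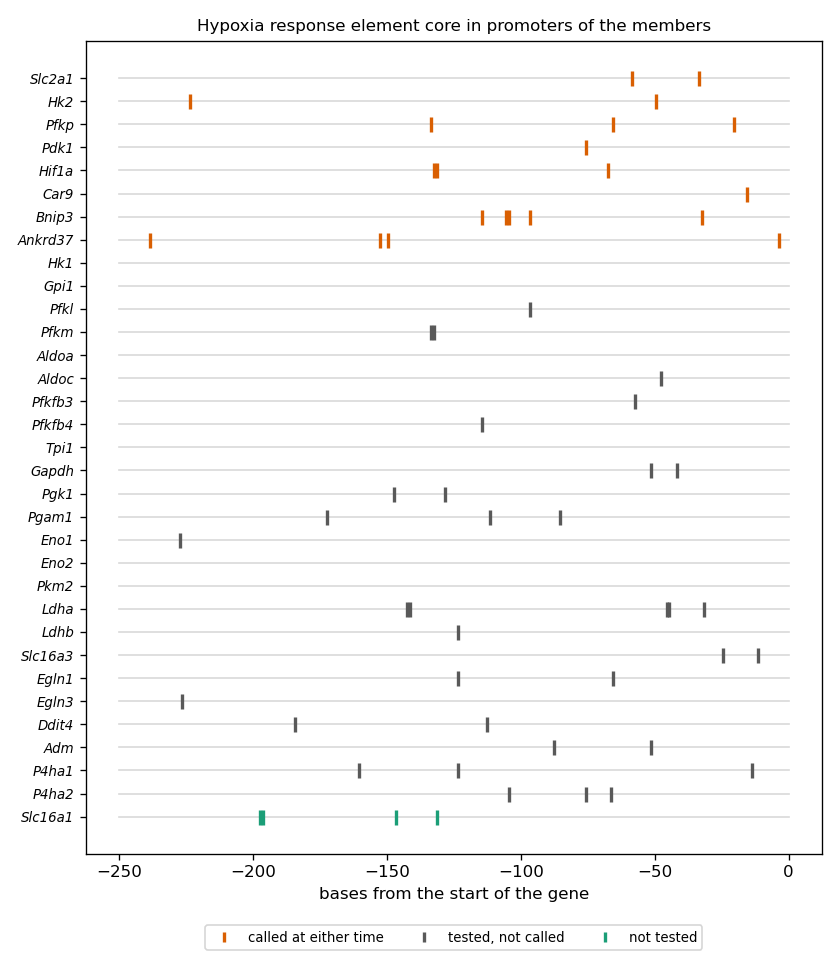
Positions of the hypoxia response element core (vertical marks, ACGTG or GCGTG on either strand) in the first listed promoter, the 250 bases before the gene start, of each member with a sequence (horizontal lines, x axis, bases from the gene start). Members called after CSF-1 are orange, those tested and not called grey and the untested member green; marks stand on 27 of the 33 lines.

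After CSF-1, 9 of the 33 tested members were higher at 24 h and 8 at 48 h, and none was lower at an adjusted p under 0.05 (limma, Benjamini-Hochberg over 24648 genes). The 9 were the glucose transporter Slc2a1, the early glycolytic enzymes Hk2 and Pfkp, the pyruvate dehydrogenase kinase Pdk1, Hif1a itself and the hypoxia-responsive genes Car9, Bnip3, Ankrd37 and Ndrg1. All but Ankrd37 were called higher at both times, which is 8 of 33 members, beside 1211 of 24648 genes. For Pfkp the choice of probe decided the call: its second probe, the brighter one in unstimulated cells, was not called. With the probe of each gene chosen on the unstimulated arrays, 7 members were higher at each time, beside 7.70% and 6.43% of all genes. Pfkp was not among the 7 and, at 24 h, neither was Ankrd37 (adjusted p = 0.0503). The 9 are 27.3% of the members tested at 24 h, beside 8.02% of all genes called higher and 5.99% called lower. The 8 are 24.2% at 48 h, beside 6.58% higher and 7.38% lower among all genes. Car9 entered the test only through the treated arrays, where it was high, so it had to differ and its p-values are no support. Among the 32 members well above background on all 6 arrays, tested with 21322 such genes, 9 were higher at 24 h (Aldoc in place of Car9), beside 8.50% of those genes, and 7 at 48 h, beside 7.68%. In that fit Ldhb was called lower at 24 h (adjusted p = 0.0465). With the replicate number as a block, Ldhb and Pfkm were called lower at 24 h, and Ankrd37 was not called. Both comparisons use the same pair of unstimulated arrays, so the second is not independent of the first. At an unadjusted p under 0.05, 10 members were higher and 4 lower at 24 h, beside 4215 and 3506 of 24648 genes (31.3% in either direction). At 48 h 12 were higher and 1 lower, beside 2991 and 4622 of all genes (30.9% in either direction). A rule of an unadjusted p under 0.05 with a change of at least 2-fold kept 6 members higher at 24 h (5.86% of all genes) and 3 at 48 h (4.66%), and 0 lower at either time (1.83% of all genes at each).

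The median log2 fold change of the 33 members was 0.15 at 24 h and 0.14 at 48 h, against 0.04 and -0.04 over all genes tested, and centring each array on its median turned the members' 24 h median to -0.14 while that of all genes went to -0.25. With probes chosen on the unstimulated arrays the members' 24 h median was 0.03, as was that of all genes. Setting Car9 to the limit its background allows left the members' medians at 0.15 and 0.14. Both treated arrays lay above both unstimulated arrays for 17 members at 24 h (51.5%, beside 31.3% of all genes) and for 21 at 48 h (63.6%, beside 23.8%). They lay below for 7 members at 24 h (27.7% of all genes) and for 3 at 48 h (35% of all genes), and the groups overlapped for the other 9 at each time.

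The calls depended on single arrays, since a group held only 2. Without the first unstimulated array, without the second one, or without the second 24 h array, 0 members were called higher at 24 h, while 1180, 603 and 423 genes in all were called in these fits. Without the first 24 h array, the only one on its slide, 3 members were called at 24 h (Slc2a1, Car9 and Ndrg1), and 5 without the first 48 h array. At 48 h, 0 members were called without either unstimulated array, 4 without the first and 1 without the second 24 h array, and 1 without the first and 3 without the second 48 h array. The direction of all 9 members was the same in each of these fits that left out 1 array. Scaling changed the balance of calls: centring each array on its median gave 5 members higher and 4 lower (Ldhb, Pfkfb3, Pfkfb4 and Pfkm) at 24 h, and 4 higher and 1 lower (Ldhb) at 48 h. With that centring 4903 of 24648 genes were called at 24 h and 3094 at 48 h. Only 4.86% and 4.88% of all genes were called higher, so most of these calls were lower. With normexp correction the 24 h counts were 9 higher and 2 lower (Pfkfb4 and Pfkm) after scaling to the 75th percentile, and 8 higher and 1 lower (Ldhb) after quantile normalization. Among all genes 4411 and 3946 were called in these fits, with 8.40% and 7.19% higher. With the slide as a block, 5 members were higher at 48 h and 0 lower, while 4.68% of all genes were called higher. The 24 h comparison then rests on the arrays of the first slide, which holds 1 array of the 24 h group.

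**Figure D2:**
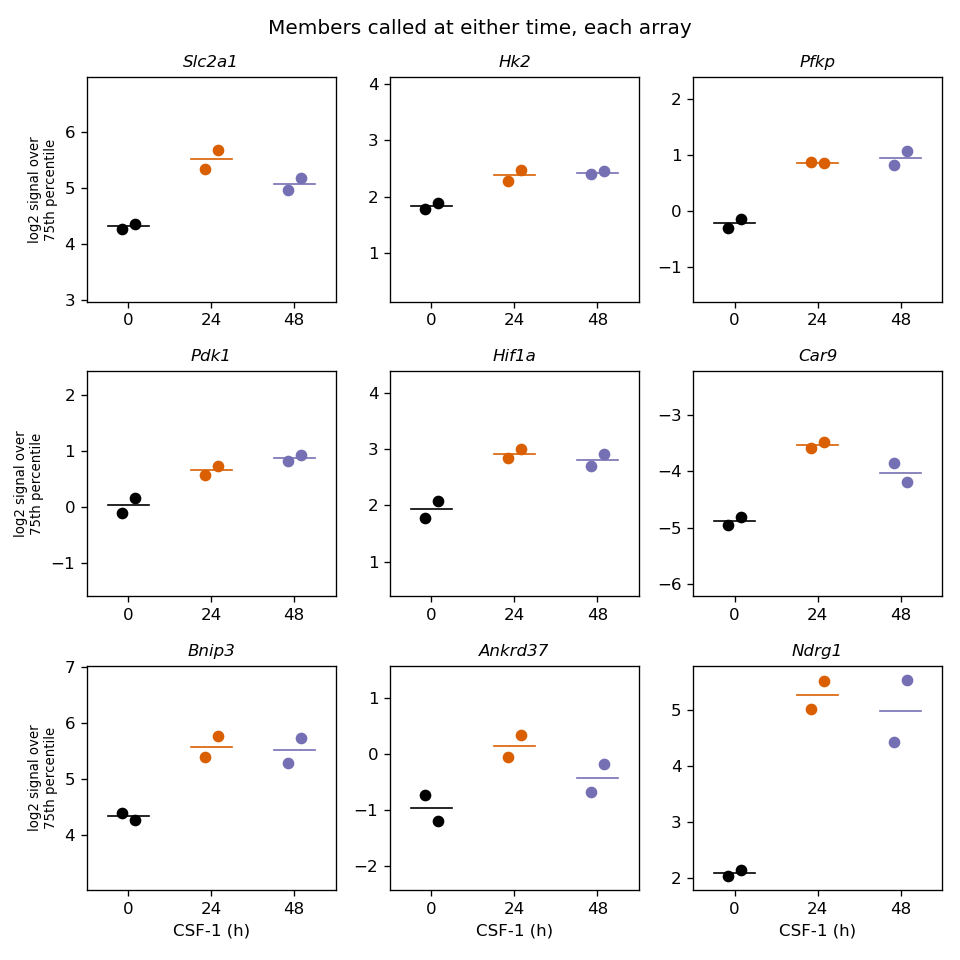
Log2 signal over the array's 75th percentile (y axis, spanning 4 units in every panel) of the 9 members called at either time, with 1 point per array, 2 arrays per group and a bar at the group mean, in unstimulated cells (0) and at 24 and 48 h of stimulation (x axis). In every panel both arrays of each treated group lie above both unstimulated arrays.

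Uptake of glucose was represented by Slc2a1, which encodes the widespread glucose transporter GLUT1. Its log2 level was 4.27 and 4.36 on the unstimulated arrays, 5.34 and 5.68 at 24 h, and 4.97 and 5.17 at 48 h. The groups did not overlap, and the 24 h arrays stood highest. The log2 fold change was 1.19 at 24 h (95% interval 0.80 to 1.59, adjusted p = 0.0117, a 2.29-fold rise) and 0.75 at 48 h (0.36 to 1.15, adjusted p = 0.0379). Slc2a3, the high-affinity transporter GLUT3, read between -6.71 and -3.52 and was well above background on 1 unstimulated, 1 24 h and 0 48 h arrays, so no fold is given.

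Among the 8 genes from hexokinase to aldolase, 2 rose at both times, Hk2 and, on 1 of its probes, Pfkp, and 6 did not pass. At each time the 2 are 25% of the 8, beside 8.02% and 6.58% of all genes called higher at 24 h and 48 h. Hk2, the inducible hexokinase that traps glucose in the cell, read 1.78 and 1.89 on the unstimulated arrays, 2.28 and 2.47 at 24 h, and 2.39 and 2.45 at 48 h. Every treated array was above both unstimulated ones, and the treated groups overlapped. The log2 fold changes were 0.54 (adjusted p = 0.0442) and 0.59 (adjusted p = 0.0367).

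Pfkp, the platelet isoform of phosphofructokinase, which commits sugar phosphate to glycolysis, has a pair of probes. The one used read -0.30 and -0.13 in unstimulated cells, 0.88 and 0.86 at 24 h, and 0.83 and 1.08 at 48 h. On the probe brightest over all arrays, the treated arrays formed 1 range, clear of the unstimulated pair. Its log2 fold change was 1.08 at 24 h (0.74 to 1.42, adjusted p = 0.0101) and 1.17 at 48 h (0.83 to 1.51, adjusted p = 0.00849). The other phosphofructokinase genes did not pass: Pfkl, the liver isoform, gave 0.18 and 0.34, and Pfkm, the muscle isoform, gave -0.58 (adjusted p = 0.0936) and -0.17. Gpi1, which converts glucose 6-phosphate to fructose 6-phosphate, gave 0.27 and 0.35. Aldoa, the main aldolase of muscle and of many growing cells, gave 0.03 and 0.16, and Aldoc, the brain isoform, gave 0.50 (adjusted p = 0.0675) and 0.45 (adjusted p = 0.0866).

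Hk1, the constitutive hexokinase, differed between its 3 probes. The brightest, designed to the sequence J05277 and placed at chr10:61731230-61731288 (build mm9), gave a log2 fold change of -0.12 at 24 h and -0.17 at 48 h and did not pass. The other 2 probes, both designed to NM_001146100, lie at chr10:61731856-61731915 and chr10:61732717-61732776. The first of them read 5.53 and 5.77 in unstimulated cells, 6.43 and 6.62 at 24 h, then 6.63 and 6.83 at 48 h. It rose by 0.88 (adjusted p = 0.0250, over all probes fitted singly) and 1.08 (adjusted p = 0.0164). The second read 0.76 and 0.85, then 1.60 and 1.73, then 1.72 and 1.90, and rose by 0.86 (adjusted p = 0.0170) and 1.01 (adjusted p = 0.0125). On both of these probes all treated arrays lay above the unstimulated ones, whereas on the brightest the groups overlapped. With the mean over probes Hk1 was called, at 0.54 (adjusted p = 0.0422) and 0.64 (adjusted p = 0.0301).

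Pfkp showed the same kind of difference the other way round, and its main probe was the brighter one only because of the treated arrays (unstimulated mean -0.21, against -0.03 on the other). The main probe spans chr13:6581718-6583872 in mm9, and its second probe, at chr13:6579124-6579183, gave -0.10 at 24 h and -0.28 at 48 h (adjusted p = 0.642 and 0.208). On that probe the levels were -0.03 and -0.04 in unstimulated cells, -0.20 and -0.07 at 24 h, and -0.40 and -0.23 at 48 h, so the treated arrays lay slightly below. With the mean over both probes Pfkp gave 0.49 (adjusted p = 0.0612) and 0.45 (adjusted p = 0.0814) and was not called at either time. Whether these probes detect different transcripts was not tested.

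Pfkfb3 and Pfkfb4 make fructose 2,6-bisphosphate, the activator of phosphofructokinase, and neither passed. The 24 h and 48 h values were -0.35 (adjusted p = 0.108) and 0.14 for Pfkfb3. Pfkfb4 gave -0.57 (adjusted p = 0.0803) and -0.11. At 24 h both lay below the unstimulated arrays without overlap, and at 48 h Pfkfb3 lay above them.

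The 7 genes from triose phosphate to pyruvate had 0 calls at either time, although Tpi1 was called higher at 48 h with normexp and quantile normalization (adjusted p = 0.0288) and with an intensity trend (adjusted p = 0.0382). Their log2 fold changes ran from -0.08 to 0.24 at 24 h and from -0.04 to 0.31 at 48 h. The 95% intervals of all 7 lay within a 1.44-fold rise and a 1.27-fold fall at 24 h, and within a 1.51-fold rise and a 1.24-fold fall at 48 h. The upper end was set by Tpi1, the triose phosphate isomerase, at 0.24 and 0.31 (adjusted p = 0.217 and 0.136). Pgk1, which makes the first ATP of the pathway, gave -0.04 and 0.18, Pgam1, the mutase after it, 0.00 and -0.01, and the enolases gave -0.04 and -0.04 (Eno1) and 0.15 and 0.27 (Eno2). Pkm2, as the arrays name the pyruvate kinase gene Pkm, gave -0.02 and 0.06.

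Gapdh, the dehydrogenase often used as a reference gene, read 9.47 and 9.50 unstimulated, 9.39 and 9.43 at 24 h, and 9.62 and 9.54 at 48 h, a log2 fold change of -0.08 and 0.09. All 8 of its probes gave values between -0.08 and 0.03 at 24 h and between 0.09 and 0.17 at 48 h, with none called (0 at either time, fitted over all probes). Its brightest probe is annotated on chromosome 7 and another on chromosome 8, while the remaining 6 lie on chromosome 6 with the gene. The probe of Pgk1 is likewise annotated on chromosome 3, and RefSeq places the gene on chromosome X. Near-identical copies may therefore share the signal of these 2 members.

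**Figure D3:**
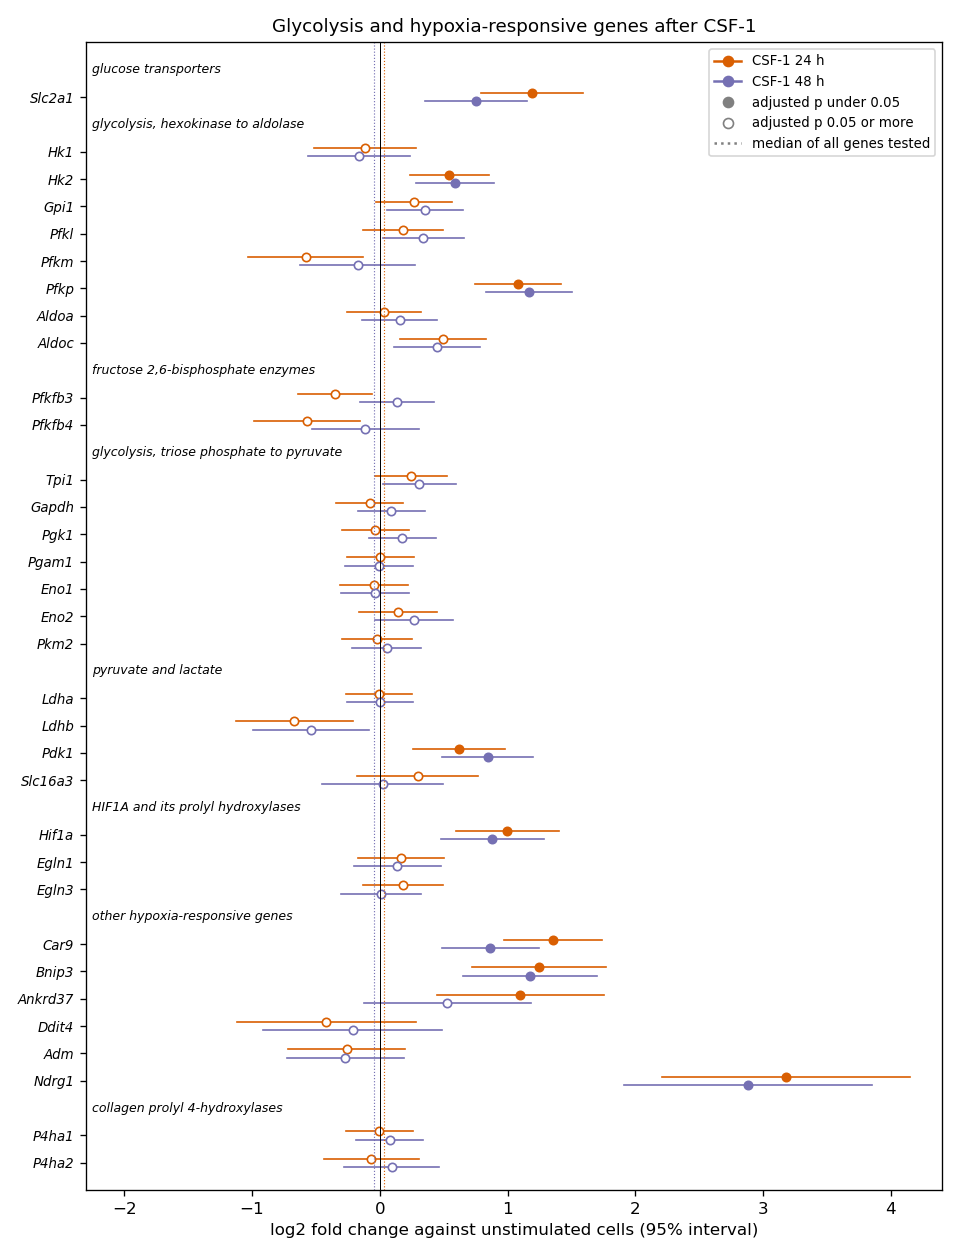
Log2 fold change against unstimulated cells (x axis) with 95% intervals from limma for the 33 tested members, grouped by role, at 24 h (orange) and 48 h (purple), 2 arrays per group. Filled points passed an adjusted p under 0.05 and dotted lines give the median of all genes tested; the filled points are Slc2a1, Hk2, Pfkp, Pdk1, Hif1a, Car9, Bnip3 and Ndrg1 at both times and Ankrd37 at 24 h.

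At the end of the pathway Pdk1 rose and the lactate genes did not pass. Pdk1 phosphorylates and so inhibits pyruvate dehydrogenase, which limits the entry of pyruvate into the mitochondrial cycle. It read -0.11 and 0.16 unstimulated, 0.57 and 0.73 at 24 h, and 0.81 and 0.93 at 48 h. The 3 groups did not overlap and stood in the order of time, although 48 h was not separated from 24 h by the test (difference 0.22, adjusted p = 0.548). The rise was 0.62 at 24 h (0.26 to 0.98, adjusted p = 0.0463) and 0.84 at 48 h (0.49 to 1.20, adjusted p = 0.0225).

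Ldha, the lactate dehydrogenase subunit that favours lactate, read between 8.67 and 8.73 on all 6 arrays. Its 95% interval ran from -0.26 to 0.25 at 24 h and from -0.26 to 0.26 at 48 h, and its 3 probes gave values between -0.05 and 0.00. Ldhb, the subunit that favours pyruvate, read -0.50 and -0.51 unstimulated, -0.97 and -1.38 at 24 h, and -0.90 and -1.18 at 48 h. All treated arrays of Ldhb were lower, but the log2 fold changes of -0.67 and -0.54 did not pass (adjusted p = 0.0687 and 0.115). Slc16a3, the lactate exporter MCT4, gave 0.30 and 0.02 and did not pass. Slc16a1, the transporter MCT1, read 0.40 and 0.01 unstimulated, 0.31 and 0.30 at 24 h, and 0.32 on the first 48 h array. With its flagged spot kept, the second 48 h array read 1.37 and the gene was not called (adjusted p = 0.893 and 0.298).

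Hif1a transcript rose. The brightest probe, at chr12:75047269-75047329 in mm9, read 1.77 and 2.08 unstimulated, 2.84 and 3.01 at 24 h, and 2.70 and 2.91 at 48 h. The treated groups overlapped each other and lay clear of the unstimulated arrays. The log2 fold change was 0.996 at 24 h (0.59 to 1.40, adjusted p = 0.0192) and 0.88 at 48 h (0.48 to 1.28, adjusted p = 0.0269). The second Hif1a probe was not well above background in unstimulated cells and was at least 1.77-fold higher at 24 h. At 48 h it was well above background on 1 of 2 arrays, so no fold is given. It was not called at either time (adjusted p = 0.125 and 0.24). The prolyl hydroxylases that mark HIF1A for degradation did not pass: Egln1 gave 0.17 and 0.14, and Egln3 gave 0.18 and 0.01.

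Of the 6 other hypoxia-responsive genes, 4 rose at 24 h and 3 of these at 48 h. These are 66.7% and 50% of the 6, beside 8.02% and 6.58% of all genes called higher. Car9, among them at both times, entered the test only through the treated arrays. Ndrg1, a stress-responsive gene linked to growth arrest and differentiation, had the largest change of any member. It read 2.05 and 2.14 unstimulated, 5.02 and 5.52 at 24 h, and 4.42 and 5.53 at 48 h. The treated arrays were all far above the unstimulated pair, and the 48 h arrays were spread over the whole range of the 24 h ones. The fold change was 9.04 at 24 h (log2 3.18, 2.21 to 4.15, adjusted p = 0.00961) and 7.37 at 48 h (log2 2.88, 1.91 to 3.85, adjusted p = 0.0128).

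Bnip3, which promotes the removal of mitochondria, read 4.39 and 4.28 unstimulated, 5.39 and 5.77 at 24 h, and 5.29 and 5.74 at 48 h. The treated groups covered the same range, above the unstimulated arrays. It rose by 1.25 (adjusted p = 0.0212) and 1.18 (adjusted p = 0.0251). All 3 Bnip3 probes, which lie within chr7:146082536-146082819 in mm9, were called at both times, with values between 1.25 and 1.57 at 24 h and between 1.16 and 1.36 at 48 h.

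Car9, the membrane carbonic anhydrase that is a widely used marker of hypoxic tumour cells, was not well above background on either unstimulated array and was so on all treated ones. It read -4.96 and -4.81 unstimulated, -3.58 and -3.48 at 24 h, and -3.86 and -4.18 at 48 h. Against the lowest signal well above background on the unstimulated arrays it was at least 2.30-fold higher at 24 h (adjusted p = 0.00806) and at least 1.63-fold higher at 48 h (adjusted p = 0.0247), p-values of a gene that entered the test only where it was high. This dim probe depended on the background treatment: with normexp correction the log2 fold change fell to 0.39 at 24 h and 0.19 at 48 h, and with quantile normalization alone it was 0.87 and 0.66, none of them called. The lowest values under any alternative were 0.18 at 24 h and 0.14 at 48 h.

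Ankrd37, a small ankyrin-repeat gene induced by HIF, read -0.73 and -1.19 unstimulated, -0.06 and 0.34 at 24 h, and -0.67 and -0.18 at 48 h. The 24 h arrays were clear of the unstimulated ones, and the lower 48 h array was close to the higher unstimulated array. It was called at 24 h, with a 2.14-fold rise (log2 interval 0.45 to 1.75, adjusted p = 0.0496), and not at 48 h (1.44-fold, log2 0.53, adjusted p = 0.24). Ddit4, an inhibitor of mTORC1 that stress induces, gave -0.42 and -0.21, and Adm, the vasodilator peptide adrenomedullin, gave -0.26 and -0.27, with neither called.

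The collagen prolyl 4-hydroxylase subunits P4ha1 and P4ha2, which stabilise the collagen triple helix, did not pass. P4ha1 gave 0.00 and 0.08, and P4ha2 gave -0.07 and 0.09. The 95% intervals of both lay within a 1.24-fold rise and a 1.35-fold fall at 24 h, and a 1.38-fold rise and a 1.21-fold fall at 48 h.

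**Figure D4:**
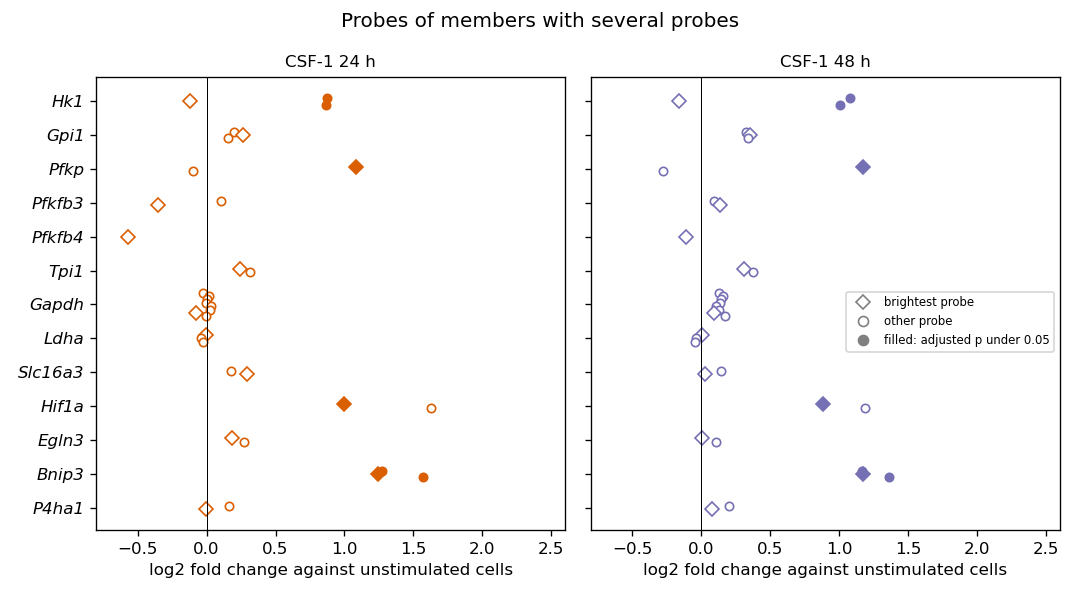
Log2 fold change (x axis) of each tested probe of the 13 members with several probes, at 24 h and 48 h against unstimulated cells; diamonds are the brightest probe, circles the others, and filled marks passed an adjusted p under 0.05 over all probes. The Hk1 and Pfkp probes separate, whereas those of Gapdh, Ldha and Bnip3 lie together.

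Between the 2 times, 0 members and 0 of 24648 genes differed at an adjusted p under 0.05. At an unadjusted p under 0.05, 4 members differed (12.1%, beside 13.6% of all genes), and the smallest adjusted p of a member was 0.195. Pfkfb3 and Pfkfb4 were higher at 48 h, by 0.49 and 0.46, and Slc2a1 and Car9 lower, by a difference of -0.44 and -0.49. The largest difference, -0.57 for Ankrd37, had an unadjusted p of 0.0751. Both 48 h arrays lay above both 24 h arrays for 11 of the 33 members (14.2% of all genes). They lay below for 6 (33.7% of all genes). Differences between the times are given as values, since no member passed the adjusted test.

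Other genes of the same pathways were read from 5 lists of 98 genes, of which 83 were tested. In these lists 11 genes were higher and 6 lower at 24 h, and 14 were higher and 10 lower at 48 h. Higher calls were thus 13.3% and 16.9% of the tested genes, beside 8.02% and 6.58% of all genes, and the shares of all genes called lower were 5.99% and 7.38%. Further genes known as HIF targets held most of the rises: of 32 tested, 7 were higher and 3 lower at 24 h, and 11 higher (34.4%) and 4 lower at 48 h, with a median log2 fold change of 0.43 and 0.23. Stc1, the secreted calcium and phosphate regulator stanniocalcin, was not well above background in unstimulated cells and was at least 1.93-fold higher at 24 h and at least 3.75-fold higher at 48 h (adjusted p = 0.00179 and 0.00102). Angptl4, an inhibitor of lipoprotein lipase, read 3.53 and 4.32 unstimulated, 7.39 and 7.84 at 24 h, and 6.76 and 6.89 at 48 h, which is a rise of 3.69 (adjusted p = 0.00376) and 2.90 (adjusted p = 0.00628). Car12, a carbonic anhydrase like Car9, was well above background on the 48 h arrays only and was at least 2.13-fold higher there (adjusted p = 0.00127). Like Car9, Stc1 and Car12 entered the test only through treated arrays, and their p-values are no support.

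Vegfa, the angiogenic growth factor, was chosen for naming after its values were seen. It read 1.15 and 1.22 unstimulated, 3.26 and 3.90 at 24 h, and 2.69 and 2.91 at 48 h, a rise of 2.39 (adjusted p = 0.00576) and 1.61 (adjusted p = 0.0152). Lox, a collagen cross-linking oxidase also chosen after its values were seen, moved the other way, at -1.40 and -1.34 (adjusted p = 0.0106 and 0.0125). The known targets of HIF thus moved in both directions in these cells.

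Of the 13 other HIF pathway components 1 was called, which is 7.69% at each time and near the 8.02% and 6.58% of all genes called higher. The 1 called was Arnt2. This ARNT relative was not well above background in unstimulated cells and at least 1.67-fold higher at 24 h (adjusted p = 0.0267). At 48 h it was well above background on 1 of 2 arrays, with a log2 fold change of 1.14 (adjusted p = 0.0404), and it too entered the test only through the 24 h arrays. Epas1, the HIF2 alpha subunit, gave 0.07 and 0.01, Arnt gave -0.08 and -0.20, and Vhl, the ligase subunit that removes hydroxylated HIF1A, gave 0.22 and -0.01.

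Of the 13 genes of pyruvate entry into mitochondria, 1 was higher and 1 lower at 24 h, and 1 higher and 3 lower at 48 h, with a median of -0.30 and -0.26. The 1 higher gene is 7.69%, near the 8.02% and 6.58% of all genes. In either direction 15.4% and 30.8% of the 13 were called, beside 14% of all genes at each time. Pcx, the carboxylase that turns pyruvate into oxaloacetate, read 2.14 and 2.41 unstimulated and between 0.73 and 0.77 on the 4 treated arrays, a log2 fold change of -1.52 and -1.53 (adjusted p = 0.00437 and 0.00396). Pdp1, the phosphatase that reverses the action of the kinases, rose by 0.88 and 0.71 (adjusted p = 0.0181 and 0.0314). Brp44l, which encodes a subunit of the mitochondrial pyruvate carrier, gave -0.50 at 24 h (adjusted p = 0.0777) and fell by 0.85 at 48 h (adjusted p = 0.0226). The kinases related to Pdk1 did not pass: Pdk2 gave 0.13 and 0.28, Pdk3 gave -0.14 and 0.01, and Pdk4 gave 0.53 and -0.08.

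Among 17 further glycolytic isozymes and regulators, 2 were higher and 2 lower at 24 h, and 1 higher and 2 lower at 48 h. The shares called higher, 11.8% and 5.88%, lay near the 8.02% and 6.58% of all genes. In either direction 23.5% and 17.6% of the 17 were called, beside 14% of all genes at each time. Pgm2, a phosphoglucomutase, rose by 0.87 and 1.09 (adjusted p = 0.0198 and 0.0115). Bpgm, which makes 2,3-bisphosphoglycerate, changed by -0.95 and -0.76 (adjusted p = 0.0188 and 0.0334), and Eno3, the muscle enolase, by -1.08 and -0.46 (adjusted p = 0.00569 and 0.0448). In the pentose phosphate pathway 0 of 8 genes were called at 24 h. At an unadjusted p under 0.05 there were 1 higher and 2 lower, beside 4215 higher and 3506 lower of 24648 genes (31.3% in either direction). Only Rpia, the ribose 5-phosphate isomerase, was called at 48 h, at -1.24 (adjusted p = 0.0259). This is 12.5% of the 8, beside 7.38% of all genes called lower.

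**Figure D5:**
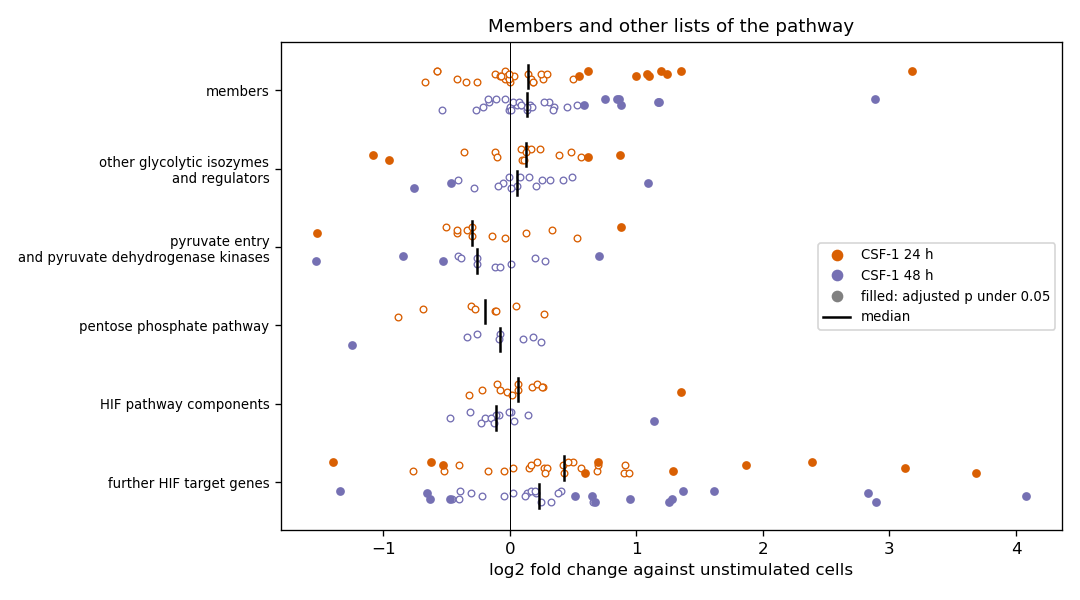
Log2 fold change against unstimulated cells (x axis) of each tested gene of the members and of 5 further lists, at 24 h (orange) and 48 h (purple), with filled points past an adjusted p under 0.05 and a black bar at the list's median. The further HIF targets reach 3.69 at 24 h and 4.08 at 48 h, and the genes of pyruvate entry have medians of -0.30 and -0.26.

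Across the arrays, between 58.7% and 72.0% of 59305 gene spots were well above background and 0 were saturated. Replicate arrays correlated at 0.993 over the genes tested, with an SD of their log2 difference of 0.371 to 0.395. Among epithelial markers, Krt8, Krt5, Cldn4, Cldn7 and Esrp1 were well above background on all arrays, while Cdh1 and the prostate marker Hoxb13 were so on none. Krt8 was called higher at 48 h (log2 fold change 1.98, adjusted p = 0.0106), and the summed linear signal of the epithelial and prostate markers was 2.75 to 3.02 times the 75th percentile in unstimulated cells, 2.80 to 2.86 at 24 h and 3.52 to 3.54 at 48 h. Proliferation markers differed between the groups as well, in the other direction: all 7 tested were below their unstimulated level at both times, Mcm2 and Mcm5 were called lower at both and Ccnb1 at 48 h. These calls are 28.6% and 42.9% of the 7 at 24 h and 48 h, beside 5.99% and 7.38% of all genes called lower. The summed linear signal of the proliferation markers was 161 to 164 times the array's 75th percentile in unstimulated cells, 122 to 133 at 24 h and 118 to 135 at 48 h. Of 15 macrophage markers on the arrays, 9 were tested and 3 rose at both times: Mrc1, Mpeg1 and Cd14. The 3 are 33.3% of those tested, beside 8.02% and 6.58% of all genes called higher at 24 h and 48 h. Called higher at both times were 1211 of 24648 genes. Without Csf1r, which the virus added, the sum of 13 macrophage markers was 40.5 to 45.1 unstimulated, 33.8 to 41.1 at 24 h and 29.4 to 37.9 at 48 h, and Lyz2 and Cd163 were not well above background on any array. The part of these shifts in the values of the members was not tested.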

How the data were processed

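Total RNA was labelled with Cy3 and hybridised to 6 single-colour Agilent mouse arrays. Per the file headers, the deposited spot files were written by Feature Extraction 11.0.1.1 (11.0.1 in the submitters' processing notes), and their background-subtracted processed signal was read, an intensity on a linear scale that the authors left unscaled between arrays. The deposited series table holds the authors' log2 values, made in GeneSpring. Its scale matched the log2 values used here for 99.8% of values within 0.05 after 1 constant per probe and array, its column medians ran from -0.04 to 0.17, and its baseline and direction of centring are not given in the sources used here.

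Here log2 processed signals minus each array's 75th percentile were fitted with limma 3.58.1 (R 4.3.3, lmFit and eBayes, 3 groups, 3 residual degrees of freedom) for the brightest probe of 24648 genes. Control and outlier-flagged spots were left out. A gene was tested if some group had it well above background on each of its arrays, and called at a Benjamini-Hochberg adjusted p under 0.05. With 2 against 2 arrays an exact two-sided permutation test cannot go below 0.333 and was not used. A limit ("at least") sets the bright group's mean against the lowest signal well above background. Array values are given for members called or changed 2-fold at either time, and for others where the text turns on them. In the other lists the 3 called genes with the largest mean change over both times are named, and between times the members with the largest difference. Chosen after their values were seen were the array values of Ldha, Ldhb, Gapdh, Slc16a1 and of single probes, and Vegfa, Lox and the uncalled genes named in the other lists. Alternatives covered background, scaling, filter, probe, prior, blocks and each array left out, and after the data were seen also flagged spots, single probes and probes chosen on the unstimulated arrays. Probe positions are mm9, from the files; promoters are GRCm38.p6. The members and lists were chosen with earlier results of these data known. The code was tested on simulated data. Some marker genes are not reported here.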

Additional observations from a re-analysis of the deposited data

Results flagged for a closer look

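Pfkfb3, which makes the activator of phosphofructokinase, lay on opposite sides of the unstimulated arrays at the 2 times. It read 0.13 and 0.30 unstimulated, -0.11 and -0.16 at 24 h, and 0.39 and 0.32 at 48 h, so that both 24 h arrays were lower and both 48 h arrays higher. The difference between 48 h and 24 h was 0.49 on the log2 scale (unadjusted p = 0.00701, adjusted p = 0.195 by limma) and did not pass. Its second probe gave 0.10 at 24 h and 0.09 at 48 h.

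Gapdh showed the same arrangement on a smaller scale, with a difference of 0.17 between 48 h and 24 h (adjusted p = 0.534 by limma), which did not pass. It held on the brightest probe, annotated on chromosome 7, while the other 7 Gapdh probes overlapped the unstimulated arrays at 24 h.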

How the results depend on the processing

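Under 20 alternatives (19 for Car9) the 9 members called at either time kept their direction at both times, except Pfkp, which gave -0.10 and -0.28 with probes chosen on the unstimulated arrays. The call at 24 h held in 17 of 20 for Slc2a1 and Ndrg1, 14 for Bnip3, 13 for Pfkp, 12 for Hif1a, 10 for Hk2, 9 for Pdk1 and 5 for Ankrd37, and in 13 of 19 for Car9. At 48 h it held in 16 for Ndrg1, 15 for Pfkp, 14 for Bnip3, 13 for Pdk1, 12 for Slc2a1, 10 for Hk2, 9 for Hif1a and 7 of 19 for Car9. The authors' log2 values kept all these calls. The fit of every probe singly is not among the 20. There Hk2, Pdk1 and Ankrd37 were not called at 24 h (adjusted p = 0.0501, 0.0517 and 0.0536 by limma).

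The count of members called higher at 24 h was 9, and 5 with median centring, 4 with no filter on dim probes and 3 with the slide as a block, which leaves out the only array of the second slide. At 48 h it was 8, and 4, 1 and 5 under the same alternatives, 5 with only the 2 groups in the fit and 3 with the 2-fold rule. Leaving out 1 array at a time gave 0 to 6 at 24 h and 0 to 4 at 48 h. Members called lower at 24 h were 0, and 4 with median centring (Ldhb, Pfkfb3, Pfkfb4 and Pfkm), 3 with an intensity trend, 2 with normexp and the 75th percentile, 1 with normexp and quantile normalization and 1 with probes well above background on all arrays. Of all genes, 4.86% and 4.88% were called higher at 24 h and 48 h with median centring, and 2.69% and 1.83% with no filter. With only the 2 groups in the fit, 4.68% were called higher at 48 h. Most of the 4903 genes called at 24 h with median centring were lower. Members that became higher were Aldoc at 24 h (normexp with the 75th percentile, all arrays above background, intensity trend), Gpi1 and Tpi1 at 48 h (normexp with quantile normalization, intensity trend) and Hk1 at both times (mean over probes). At 48 h 1 was lower, Ldhb, with median centring and with normexp and quantile normalization. The 24 h median of 0.15 became 0.0767 with normexp and the 75th percentile, 0.0895 with normexp and quantile normalization, 0.0956 with quantile normalization, -0.14 with median centring, 0.0891 with probes above background on all arrays, 0.0968 with the slide as a block, 0.0330 with probes chosen on the unstimulated arrays and 0.0713 to 0.145 without single arrays. The 48 h median of 0.14 became 0.0384 with median centring and 0.104 to 0.175 without single arrays. Median centring moved the median of all genes to -0.25 and -0.14. The cause of these shifts was not tested.

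Replicate numbers recur across groups but name no shared sample. The differences between replicates correlated at 0.17 to 0.28 between groups. With the replicate number as a block, 8 members were higher at 24 h (Ankrd37 was not) and 8 at 48 h, beside 9.10% and 7.47% of all genes. In that fit 2 members were lower at 24 h (Ldhb and Pfkm), 0 were lower at 48 h and 0 differed between the times. Precision is limited by the number of arrays, and for Car9 and Slc2a3 by signals near background.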
